A study of Mus musculus with 2 samples.

Results

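The 9 gene symbols described here belong to the machinery by which cells bind and take up dying cells, lipoproteins and hemoglobin: the TAM receptors Mertk and Axl, the bridging ligands Gas6, Pros1 and Mfge8, and the scavenger receptors Cd36, Marco, Msr1 and Cd163. They were chosen by symbol in the feature tables of 2 single-cell RNA libraries of lung, and 8 of the 9 had a row among the 32883 features. The symbol Cd36 was on no row, and Cd36 is not analysed here. The HIR library came from wild type lung taken 6 hours after hepatic ischemia-reperfusion, an operation that cuts off the blood supply of the liver for a time. The sham library came from wild type lung after a sham operation, for which no time is given. The labels give neither sex nor age, nor the number of animals behind a library, and they name the mouse as the organism. All feature identifiers are rat Ensembl identifiers, so the symbols are read as the files give them and no genome position is given for a feature.

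Dying cells expose phosphatidylserine on their surface. Gas6 and protein S (Pros1) bind it and bridge the dying cell to the TAM receptor tyrosine kinases Tyro3, Axl and Mertk, which start engulfment and damp inflammatory signalling in the phagocyte. Mfge8, also called lactadherin, binds the same lipid but bridges to integrins. Msr1 and Marco are class A scavenger receptors for modified lipoproteins and microbial surfaces, and Cd163 takes up complexes of haptoglobin and hemoglobin. In the lung, resident macrophages are the best known users of these receptors.

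Each library held 1 sample, so there were no replicates, no test was possible, and each difference describes these libraries. Of 9499 HIR barcodes and 10719 sham barcodes, 7925 HIR cells and 8574 sham cells were kept, with medians over all barcodes of 3094 UMIs (unique molecular identifiers, each standing for a captured transcript) in HIR and 3426 in sham. The libraries shared 24 barcodes, 16 of them among kept cells. Cells fell into 29 classes, named X-like from marker genes or left as numbered clusters, and 20 of these had at least 50 cells in each library and were compared. The members were left out of the genes used for clustering. Levels are CPM, the UMIs of a gene per 1000000 UMIs of the class, and ratios are HIR over sham. Values in parentheses after them are 95% intervals, which cover counting error only.

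Several classes were not alike in makeup between the libraries. General capillary endothelium-like cells lay mostly in cluster 6 in HIR (59.2%) and in cluster 1 in sham (68.1%). Classical monocyte-like cells lay almost wholly in cluster 18 in HIR (98.3%) and in cluster 26 in sham (98.2%). Neutrophil-like and alveolar type 1 epithelium-like cells were also split. Stromal clusters 2 and 3 matched the same marker list best but were left as numbers by the naming rule. Among its 10 leading genes cluster 3 had 1 marker of another list and none of this one. Cluster 2 held 92 HIR and 1018 sham cells, and cluster 3 held 971 HIR and 82 sham cells.

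The promoters of Gas6 and Mfge8 are shown because these bridging ligands were both lower in HIR endothelium-like cells. They are the 250 bases before the start of the mouse genes in the RefSeq annotation of GRCm38.p6, on the minus strand at chr8:13494536-13494785 for Gas6 and at chr7:79149061-79149310 for Mfge8. Capitals mark GGGCGG or its reverse complement CCGCCC, the core of the GC box that Sp1 family factors bind.
Gas6: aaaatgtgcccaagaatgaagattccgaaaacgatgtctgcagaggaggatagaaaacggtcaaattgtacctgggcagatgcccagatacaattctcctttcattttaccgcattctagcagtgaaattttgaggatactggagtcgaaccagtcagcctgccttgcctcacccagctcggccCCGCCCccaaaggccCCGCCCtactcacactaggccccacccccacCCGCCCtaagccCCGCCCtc
Mfge8: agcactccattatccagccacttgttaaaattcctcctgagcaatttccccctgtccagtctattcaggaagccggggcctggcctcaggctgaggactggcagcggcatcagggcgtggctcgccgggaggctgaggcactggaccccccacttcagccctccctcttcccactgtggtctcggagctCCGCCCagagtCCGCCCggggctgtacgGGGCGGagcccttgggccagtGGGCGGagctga
Each of these windows held the motif 4 times, counting both strands. The same window of Pros1, whose level was within 2-fold in endothelium, held it 5 times, that of Mertk 3 times and that of Axl once, and those of Marco and Cd163 did not hold it. Of 32851 mouse promoter windows of this length, 32.7% held it at least once. A match is a run of letters and was not tested as a binding site, and the deposited features are named by rat identifiers, so these mouse sequences illustrate the genes named by the labels' organism.

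Over all members, 55 of 160 pairs of member and class had enough counts to compare, at least 20 UMIs over both libraries and 20 CPM in either. Among them 4 were more than 2-fold higher in HIR and 6 more than 2-fold lower, and 45 lay within 2-fold. By the same rule 3.91% of all 103973 pairs of gene and class were higher and 3.64% lower. The pairs passed only where a gene had counts, so these counts describe the pairs measured and not the whole set of members.

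**Figure D1:**
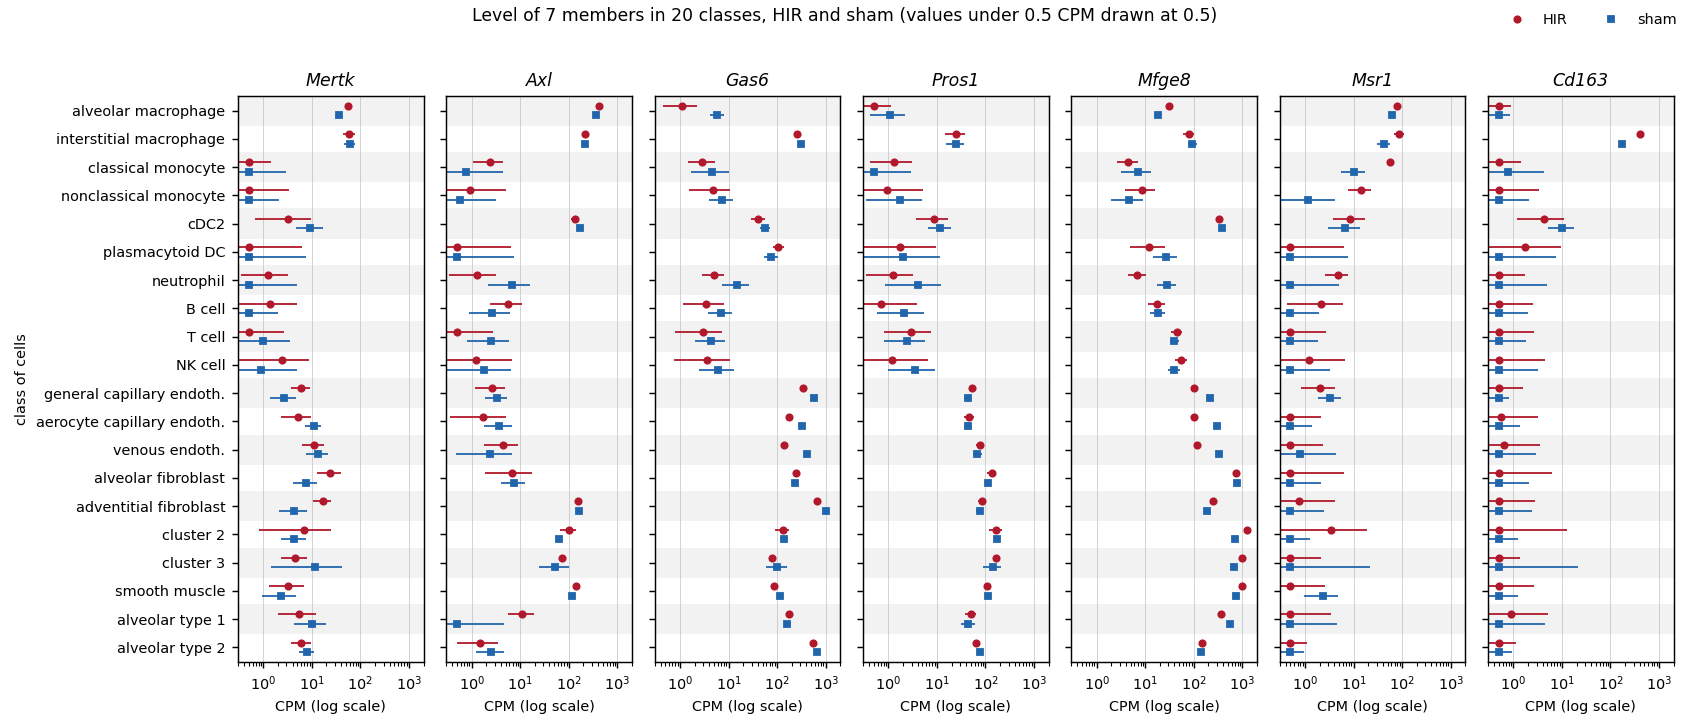
Level of 7 members (CPM, log scale) in the 20 compared classes, with HIR as circles above sham squares; lines are exact 95% counting intervals and values under 0.5 CPM are drawn at 0.5. Cd163 stands at 402 CPM in HIR and 172 CPM in sham interstitial macrophage-like cells and near the bottom elsewhere, whereas Gas6 and Mfge8 are spread over endothelial, stromal and epithelial classes.

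Axl, a TAM receptor for which Gas6 is the ligand, was foremost an alveolar macrophage gene in these libraries. Alveolar macrophage-like cells held 426 CPM (410 to 442, 2700 UMIs) in HIR and 370 CPM (356 to 385, 2441 UMIs) in sham, a ratio of 1.15 (1.09 to 1.22). They carried 64.3% of all Axl UMIs of the HIR library and 58.0% of those of the sham library. The share of these cells with an Axl UMI, after each cell was thinned to 1000 UMIs, was 33.1% (28.0 to 38.6) in HIR and 33.6% (28.7 to 38.7) in sham, and unthinned it was 98.4% and 98.9% at medians of 20201 and 18382.5 UMIs. In B cell-like cells, which should lack the gene, the thinned share was 0.577% in HIR and 0.404% in sham, at medians of 2469 and 2126 UMIs before thinning.

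Below the alveolar macrophages, the order of Axl levels among named classes ran from pericyte-like cells to interstitial macrophages, then fibroblasts, dendritic cells and smooth muscle. Pericyte-like cells, with only 17 HIR and 58 sham cells, held 306 CPM (175 to 497) in HIR and 313 CPM (237 to 407) in sham. Interstitial macrophage-like cells held 216 CPM (186 to 250) in HIR and 212 CPM (184 to 242) in sham, so that the pericyte interval overlaps theirs in both libraries. Adventitial fibroblast-like cells, at 153 CPM in HIR and 165 CPM in sham, type 2 conventional dendritic cell-like cells, at 136 and 168 CPM, and smooth muscle or myofibroblast-like cells, at 138 and 117 CPM, could not be put in order by their counting intervals in HIR. The 7 classes with enough Axl UMIs all had ratios within 2-fold, from 0.811 (0.644 to 1.02) in the dendritic cells to 1.59 (1.03 to 2.36) in cluster 2. Alveolar type 2 epithelium-like, endothelium-like and lymphoid classes were all under 10 CPM of Axl in both libraries.

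Mertk, the TAM receptor best known for macrophage efferocytosis, was held by both macrophage classes. Interstitial macrophage-like cells held 57.8 CPM (42.9 to 76.2, 50 UMIs) in HIR and 60.2 CPM (46.1 to 77.2, 62 UMIs) in sham, a ratio of 0.961 (0.648 to 1.42). Alveolar macrophage-like cells held 55.1 CPM (49.4 to 61.2, 349 UMIs) in HIR and 35.6 CPM (31.2 to 40.5, 235 UMIs) in sham, a ratio of 1.54 (1.31 to 1.83). The intervals of the alveolar macrophages do not overlap, so Mertk was higher there in HIR by more than counting error, and the classes stood level in HIR and apart in sham. The interval of the interstitial macrophage ratio includes 1, and the difference between the classes was not tested. Thinned shares of alveolar macrophages with a Mertk UMI were 5.36% (3.15 to 8.45) in HIR and 3.89% (2.14 to 6.44) in sham, which overlap.

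The third class to pass for Mertk was alveolar fibroblast-like cells, with 23.9 CPM (13 to 40) in HIR and 7.51 CPM (4 to 12.8) in sham, a ratio of 3.18 (1.39 to 7.35). This rests on 14 UMIs in HIR and 13 in sham. In the same class 8.14% of all genes were over 2-fold higher in HIR. The 16 interstitial macrophage markers, a list that includes Apoe, summed to 10506 CPM in HIR and 7590 CPM in sham in these cells. Of them 10 were detected in HIR and 11 in sham. Cd163 and Msr1 had no UMI in alveolar fibroblast-like cells of either library. The part of macrophage RNA in the Mertk value was not tested. Tyro3, the remaining TAM receptor, did not reach the minimum counts in any of the 20 compared classes.

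Gas6, the bridging ligand for Axl and Mertk, was spread over stroma, epithelium and endothelium and was lower in the HIR library in several of them. Of the 13 compared classes with enough Gas6 UMIs, 6 had a ratio whose interval lay below 1, and the intervals of the other 7 included 1. The share of all genes with such intervals was not computed, so this count has no reference. Adventitial fibroblast-like cells led with 663 CPM (620 to 709, 881 UMIs) in HIR and 1004 CPM (963 to 1045, 2316 UMIs) in sham, a ratio of 0.661 (0.611 to 0.715). Alveolar type 2 epithelium-like cells, which make surfactant, followed with 540 CPM (515 to 566) in HIR and 671 CPM (645 to 697) in sham, a ratio of 0.805 (0.758 to 0.856). These 2 classes and general capillary endothelium-like cells kept the same order in both libraries, each beyond the other's interval. Over all kept cells Gas6 was at 136 CPM (133 to 140) in HIR and 238 CPM (234 to 242) in sham, a ratio of 0.572 over a different mix of cells.

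Among the compared classes with enough Gas6 counts, endothelium-like cells, taken as whole classes, showed the lowest ratios. Venous endothelium-like cells held 141 CPM (123 to 160, 220 UMIs) in HIR and 420 CPM (385 to 457, 539 UMIs) in sham, a ratio of 0.335 (0.285 to 0.392). It was the only pair of Gas6 and class past 2-fold with enough counts, in a class where 3.3% of all genes were over 2-fold lower. General capillary endothelium-like cells held 347 CPM (328 to 367) in HIR and 581 CPM (559 to 604) in sham, a ratio of 0.598 (0.558 to 0.640), and aerocyte capillary endothelium-like cells 176 CPM (157 to 196) and 322 CPM (301 to 344), a ratio of 0.545 (0.477 to 0.621). None of these 3 intervals overlaps between libraries. The thinned share of venous cells with a Gas6 UMI was 12.7% (8.45 to 18.0) in HIR and 39.0% (31.2 to 47.1) in sham, and that of general capillary cells 27.8% (25.3 to 30.4) and 41.9% (39.3 to 44.6), against 0.192% and 0.943% in B cell-like cells.

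Because the capillary classes were divided among clusters differently in the libraries, Gas6 was also compared inside each cluster. In general capillary clusters 1, 6, 8 and 28 the ratios were 0.848 (0.715 to 1), 0.752 (0.565 to 1.02), 0.595 (0.522 to 0.678) and 0.333 (0.15 to 0.666). In aerocyte clusters 10 and 19 they were 0.741 (0.515 to 1.06) and 0.577 (0.499 to 0.665). The Gas6 ratio was thus below 1 inside every one of these clusters, but in clusters 1, 6 and 10 by an amount that reaches the edge of the counting interval or lies within it. The ratios of clusters 1, 6 and 10 were also above the 0.661 of adventitial fibroblast-like cells. The low rank of the whole capillary classes therefore did not hold inside these clusters.

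Outside endothelium, Gas6 did not differ past its counting error in several classes. Interstitial macrophage-like cells, which also carry its receptors, held 259 CPM (226 to 295) in HIR and 307 CPM (274 to 343) in sham, a ratio of 0.844 (0.708 to 1.01). Alveolar fibroblast-like cells held 249 CPM in HIR and 236 CPM in sham, alveolar type 1 epithelium-like cells 178 CPM and 163 CPM, and cluster 2 130 CPM and 136 CPM, all with intervals of the ratio that include 1. Smooth muscle or myofibroblast-like cells held 88.0 CPM in HIR and 113 CPM in sham, a ratio of 0.782 (0.651 to 0.937). Plasmacytoid dendritic cell-like cells, with 51 HIR and 61 sham cells, held 106 CPM (80.8 to 136) in HIR and 76.0 CPM (53.5 to 105) in sham. Club cell-like cells, of which only 47 were in sham, held 87.2 CPM in HIR and 139 CPM in sham.

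Pros1, which encodes protein S, an anticoagulant as well as a TAM ligand, was foremost a stromal gene. None of its pairs with a compared class that had enough counts was past 2-fold. Cluster 2, a stromal cluster led by Wnt11, held 164 CPM (121 to 218) in HIR and 171 CPM (156 to 186) in sham. Cluster 3, a stromal cluster led by Gpx3 and Cyp1b1, held 161 CPM (146 to 177) in HIR and 141 CPM (90.1 to 209) in sham. Alveolar fibroblast-like cells held 135 CPM (107 to 168) in HIR and 113 CPM (97.9 to 130) in sham, smooth muscle or myofibroblast-like cells 106 CPM (92.9 to 121) and 114 CPM (102 to 127), and pericyte-like cells 134 CPM and 151 CPM. These neighbours overlap in at least 1 library. All 11 classes with enough Pros1 UMIs lay within 2-fold, from 0.834 (0.696 to 0.999) in alveolar type 2 epithelium-like cells to 1.23 (1 to 1.52) in general capillary endothelium-like cells. Inside single clusters, Pros1 was past 2-fold in cluster 23 of the alveolar type 1 epithelium-like cells, at 57.1 CPM in HIR and 15.1 CPM in sham, a ratio of 3.79 (1.19 to 19.4) on 32 and 3 UMIs. In venous endothelium-like cells, where Gas6 and Mfge8 were lower, Pros1 was at 76.0 CPM (63.0 to 91.0) in HIR and 68.5 CPM (55 to 84.4) in sham.

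Mfge8, the integrin-bridging ligand, had its highest level in pericyte-like cells and was lower in HIR capillary and venous endothelium but higher in most HIR stroma. Pericyte-like cells held 5952 CPM (5309 to 6651, 311 UMIs) in HIR and 4329 CPM (4029 to 4645, 774 UMIs) in sham, a ratio of 1.37 (1.20 to 1.57) over 17 and 58 cells. Among the compared classes, all far below, the highest levels were stromal. Cluster 2 held 1237 CPM (1113 to 1371) in HIR and 711 CPM (681 to 742) in sham, a ratio of 1.74 (1.55 to 1.95). Smooth muscle or myofibroblast-like cells held 997 CPM (955 to 1041) in HIR and 755 CPM (724 to 786) in sham, a ratio of 1.32 (1.25 to 1.40), and cluster 3 held 994 CPM (957 to 1033) and 668 CPM (551 to 803), a ratio of 1.49 (1.23 to 1.81). Adventitial fibroblast-like cells were also higher in HIR, with 251 CPM and 186 CPM and a ratio of 1.35 (1.17 to 1.56), whereas alveolar fibroblast-like cells held 730 CPM (662 to 802) in HIR and 794 CPM (753 to 837) in sham.

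In all 3 compared endothelial classes Mfge8 was over 2-fold lower in HIR. Aerocyte capillary endothelium-like cells held 103 CPM (88.4 to 119, 181 UMIs) in HIR and 306 CPM (285 to 327, 824 UMIs) in sham, a ratio of 0.337 (0.285 to 0.396). Venous endothelium-like cells held 116 CPM (99.4 to 134) in HIR and 326 CPM (296 to 359) in sham, a ratio of 0.354 (0.296 to 0.423), and general capillary endothelium-like cells 99.6 CPM (89.3 to 111) and 211 CPM (198 to 225), a ratio of 0.472 (0.416 to 0.535). In these classes 1.47%, 3.3% and 1.39% of all genes were over 2-fold lower, in the order given. The 3 HIR levels could not be told apart by their intervals, whereas the sham level of general capillary cells lay below the sham levels of the other two. Lymphatic endothelium-like cells, cluster 36, were too few to compare, with 8 HIR and 41 sham cells, and held Mfge8 at 495 CPM on 13 UMIs in HIR and at 596 CPM on 198 UMIs in sham.

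The lower endothelial Mfge8 was present inside clusters as well. The ratios were 0.476 (0.323 to 0.679), 0.440 (0.284 to 0.712) and 0.635 (0.509 to 0.791) in general capillary clusters 1, 6 and 8, and 0.268 (0.206 to 0.345) and 0.379 (0.304 to 0.468) in aerocyte clusters 10 and 19. All of these intervals lie under 1. After thinning, 8.52% (6.0 to 11.6) of HIR and 28.2% (24.3 to 32.4) of sham aerocyte cells had a Mfge8 UMI, against 1.73% and 1.89% of B cell-like cells.

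**Figure D2:**
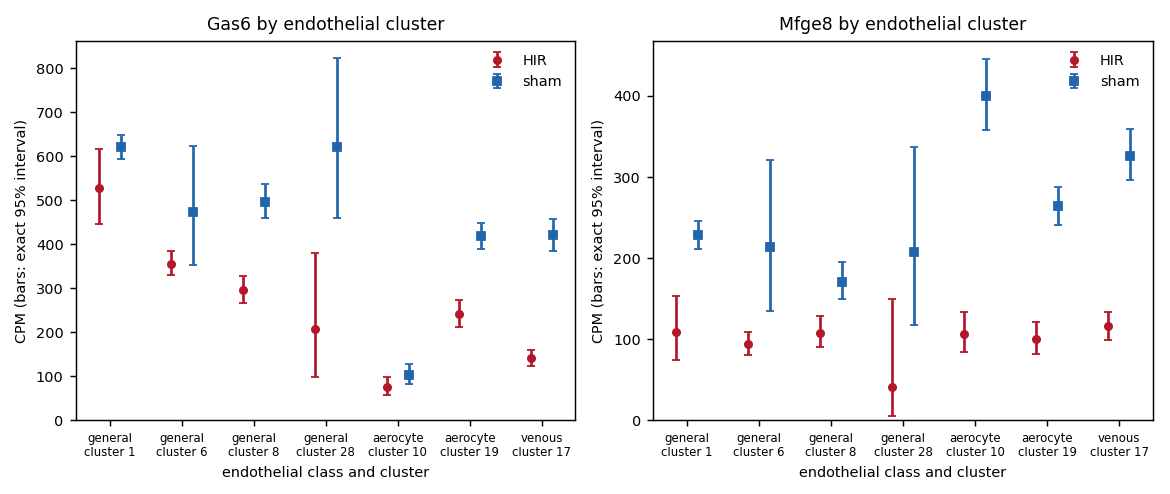
Gas6 and Mfge8 (CPM) in each endothelial cluster with at least 50 cells in each library, HIR as circles left of sham squares, with exact 95% counting intervals. HIR lies below sham for both genes in each cluster drawn, with overlapping intervals for Gas6 in clusters 1, 6 and 10 and for Mfge8 in cluster 28.

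Summed pericyte markers were lower in HIR than in sham in the compared endothelial classes, least so in general capillary cells. The summed level of the 13 pericyte markers was 169 CPM in HIR and 385 CPM in sham venous cells, 39.2 CPM and 159 CPM in aerocyte cells, and 74.5 CPM and 102 CPM in general capillary cells. In venous cells 6 of the 13 were at 0 in each library, among them Cspg4, Kcnj8 and Notch3 in both. In aerocyte cells Notch3 and Lamc3 were at 0 in both. The 12 smooth muscle markers summed to 200 CPM in HIR and 148 CPM in sham venous cells and to 138 CPM and 190 CPM in aerocyte cells. The part of pericyte RNA in the endothelial Mfge8 values was not tested. After subtraction of the level in B cell-like cells of the same library, the Mfge8 ratios were 0.297 in aerocyte, 0.319 in venous and 0.426 in general capillary cells. With each cell assigned to a class alone, they were 0.368, 0.535 and 0.505.

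Among epithelial and immune classes Mfge8 was present at lower levels. Alveolar type 1 epithelium-like cells, which lay in different clusters in the libraries, held 359 CPM (325 to 397) in HIR and 557 CPM (507 to 611) in sham, a ratio of 0.645 (0.562 to 0.740). Inside their clusters the ratio was 1.24 (0.892 to 1.77) in cluster 23, which held 62.4% of the HIR cells, and 0.656 (0.555 to 0.772) in cluster 24. Alveolar type 2 epithelium-like cells held 147 CPM in HIR and 141 CPM in sham. Type 2 conventional dendritic cell-like cells held 324 CPM (288 to 362) in HIR and 382 CPM (348 to 419) in sham, a ratio of 0.847 (0.730 to 0.982). Among HIR dendritic cells with an Axl UMI 88.1% (74.4 to 96.0) also had a Mfge8 UMI, against 27.3% (13.3 to 45.5) of those without, and in sham the shares were 76.4% (63.0 to 86.8) and 22.9% (10.4 to 40.1). After each cell was thinned to 1000 UMIs the intervals with and without Axl overlapped in both libraries. Basophil or mast cell-like cells, with 45 HIR and 63 sham cells, held 68.7 CPM (35.5 to 120) in HIR and 130 CPM (95.8 to 172) in sham.

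The remaining Mfge8 pairs past 2-fold were at low levels. Neutrophil-like cells held 6.91 CPM (4.33 to 10.5, 22 UMIs) in HIR and 28.7 CPM (17.8 to 43.8, 21 UMIs) in sham, beside 17.5 CPM and 18.2 CPM in B cell-like cells. The summed smooth muscle markers of neutrophil-like cells, 11 of 12 detected in each library, were at 36.8 CPM in HIR and 305 CPM in sham, and their part in the Mfge8 value was not tested. In that class 17.1% of all genes were over 2-fold lower. Plasmacytoid dendritic cell-like cells held 12.1 CPM in HIR and 26.7 CPM in sham on 7 and 13 UMIs, a ratio of 0.454 (0.153 to 1.22) whose interval includes 1, in a class where 2.2% of all genes were over 2-fold lower. Alveolar macrophage-like cells held 30.5 CPM (26.3 to 35.1) in HIR and 18.2 CPM (15.1 to 21.8) in sham, a ratio of 1.67 (1.33 to 2.12) at a sham level equal to that of B cell-like cells.

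Cd163, the hemoglobin-haptoglobin receptor, was a gene of interstitial macrophages and was higher in the HIR library. Interstitial macrophage-like cells held 402 CPM (361 to 447, 348 UMIs) in HIR and 172 CPM (147 to 199, 177 UMIs) in sham, a ratio of 2.34 (1.95 to 2.82). They carried 95.9% of the Cd163 UMIs of the HIR library and 92.2% of those of the sham library, from 117 HIR and 141 sham cells. The thinned share of these cells with a Cd163 UMI was 28.2% (20.3 to 37.3) in HIR and 17.3% (11.4 to 24.6) in sham, and unthinned it was 61.5% and 41.1% at medians of 7297 and 6933 UMIs. The thinned intervals overlap. No B cell-like cell of either library had a Cd163 UMI, and alveolar macrophage-like cells had 1 UMI in each library.

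Msr1, a class A scavenger receptor, was found in macrophages and, in the HIR library, in classical monocytes. Alveolar macrophage-like cells held 79.8 CPM (73.0 to 87.1, 506 UMIs) in HIR and 62.6 CPM (56.7 to 69.0, 413 UMIs) in sham, a ratio of 1.27 (1.12 to 1.45). Interstitial macrophage-like cells held 85.6 CPM (67.2 to 107, 74 UMIs) in HIR and 42.7 CPM (31.0 to 57.3, 44 UMIs) in sham, a ratio of 2 (1.36 to 2.98) that lies at the 2-fold boundary and ranged from 1.95 to 2.51 under other settings. The intervals of the macrophage classes overlapped in HIR and met at their ends in sham.

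Cd163 and Msr1 were both higher in the same HIR interstitial macrophage-like cells, a class in which 2.82% of all genes were over 2-fold higher. The interstitial macrophage markers themselves, all 16 detected, summed to 32458 CPM in HIR and 30894 CPM in sham. Neutrophil markers summed to 446 CPM in HIR and 72.8 CPM in sham, with Padi4 at 0 in both, classical monocyte markers to 417 CPM and 376 CPM, and erythroid markers to 1962 CPM and 8385 CPM. The part of these other cells in the values was not tested.

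In classical monocyte-like cells Msr1 was at 56.5 CPM (49.2 to 64.6, 216 UMIs) in HIR and 10.1 CPM (5.38 to 17.3, 13 UMIs) in sham, a ratio of 5.6 (3.20 to 10.7). The thinned share with a Msr1 UMI was 6.61% (4.24 to 9.75) in HIR and 0.606% (0.0153 to 3.33) in sham, against 0.192% and 0% in B cell-like cells, where 0 of 742 sham cells allows a share of up to 0.404% by the limit of 3 counts. In this class 5.19% of all genes were over 2-fold higher. The HIR and sham cells of this class lay in clusters 18 and 26 with almost no overlap, and the neutrophil markers among them summed to 27118 CPM in HIR and 2208 CPM in sham, so that a change of level and a change in which cells the class holds cannot be told apart. Neutrophil-like cells themselves had 4.71 CPM of Msr1 in HIR and no UMI in sham.

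Marco, the macrophage receptor with collagenous structure, was almost absent. It had 1 UMI in each library over all barcodes, both in alveolar macrophage-like cells, where the upper counting limit was 0.879 CPM in HIR and 0.845 CPM in sham. No comparison between libraries was detectable at this depth. Marco is a usual marker of mouse alveolar macrophages, and the class was named without it, from a list of 22 markers of which 19 had a row and 18 were detected in the libraries, 9 of them over 2-fold above the rest of the cells on the scale of CPM + 10. The listed markers summed to 7457 CPM in HIR and 6528 CPM in sham.

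**Figure D3:**
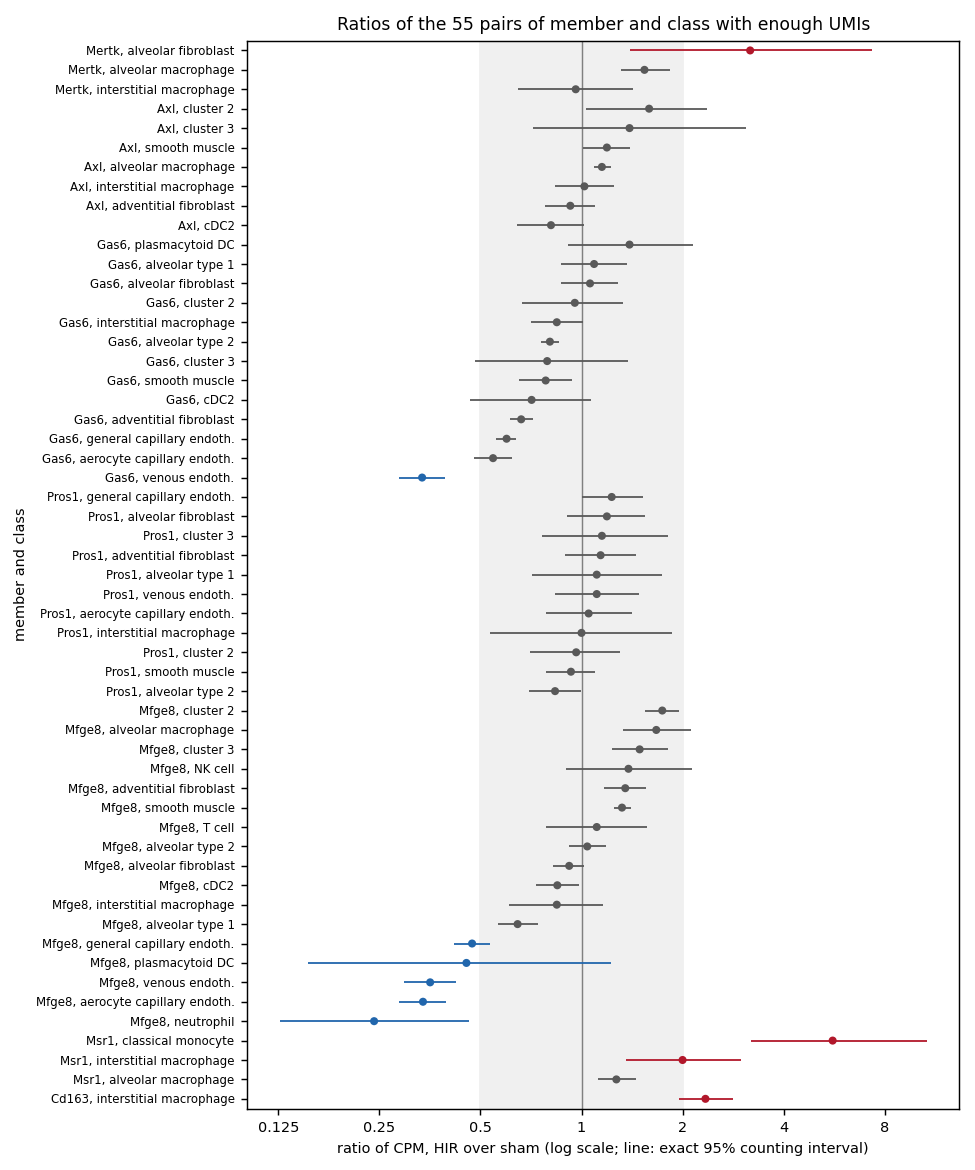
Ratio of CPM, HIR over sham (log scale), for the 55 pairs of member and class with enough UMIs, with exact 95% counting intervals; the grey band is within 2-fold and coloured points are past it. The 3 lowest Gas6 ratios are those of the endothelial classes (0.335 to 0.598), the Mfge8 points past 2-fold are those classes, neutrophil-like and plasmacytoid dendritic cell-like cells, Pros1 stays in the band, and Msr1 in classical monocyte-like cells has the highest ratio, 5.6.

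**Figure D4:**
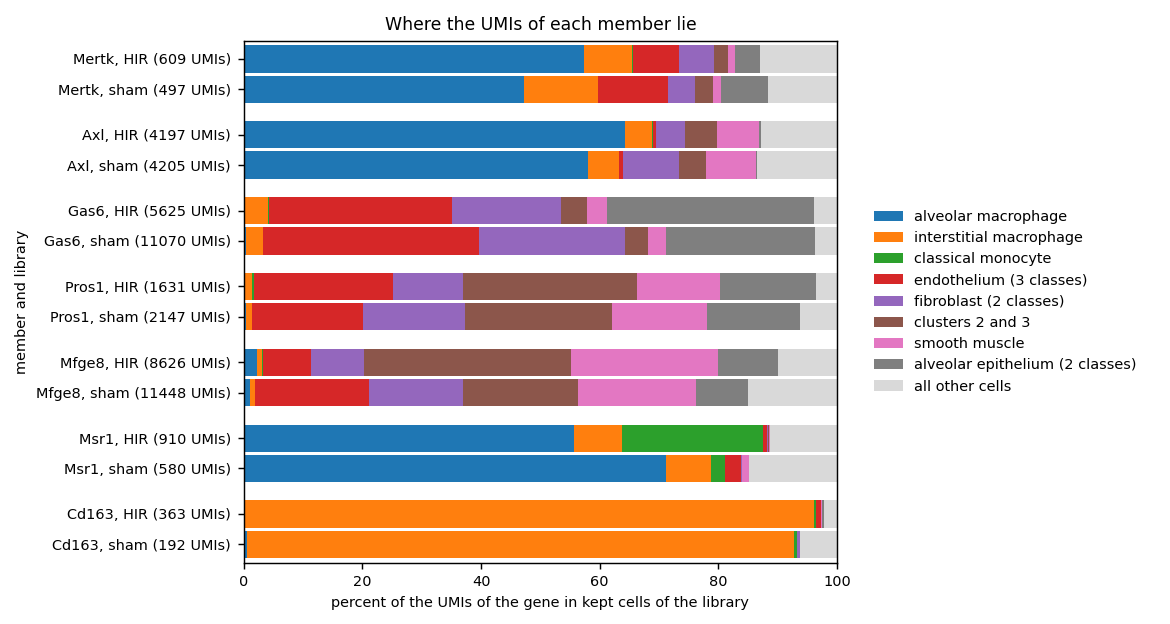
Percent of the UMIs of each member in kept cells that lie in each group of classes, HIR above sham. Axl lies mainly in alveolar macrophage-like cells (64.3% in HIR and 58.0% in sham) and Cd163 in interstitial macrophage-like cells, while classical monocyte-like cells hold 23.7% of Msr1 UMIs in HIR.

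The place of each member's UMIs in the tissue followed cell numbers as well as levels. Of all Mfge8 UMIs, cluster 3 held 30.7% in HIR and 0.996% in sham, and cluster 2 held 4.19% in HIR and 18.4% in sham. These clusters matched the same marker list best and were split by library, so their contrast cannot show whether stromal cell number changed. The largest stromal holders in sham were smooth muscle or myofibroblast-like cells with 19.9% and cluster 2. Of all Gas6 UMIs, alveolar type 2 epithelium-like cells held 31.5% in HIR and 23.8% in sham, although their own level was lower in HIR. Of all Msr1 UMIs, alveolar macrophage-like cells held 55.6% in HIR and 71.2% in sham.

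Genes whose levels ran most like a member over the 20 compared classes were named by correlation of log2(CPM + 10), the mean of both libraries, as a description. Axl was most like Igf1 (Pearson r 0.922), followed by Fcgrt and Dpp7. Gas6 was most like Aldh7a1 (r 0.864), Crtapl1 and Ptgfrn, and Pros1 most like Grb10 (r 0.963), Tceal9 and Nfia. Mfge8 was most like Pros1 itself (r 0.907), and Cd163 most like Ccl24 (r 0.996), F13a1 and Ms4a7. Cd163 lay almost wholly in interstitial macrophage-like cells, so its r rests mainly on that class. F13a1 and Ms4a7 are also on the marker list that named the class. Axl and Gas6, receptor and ligand, had r 0.145. All points share the same libraries and the same cell classes.

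Other genes of uptake and its aftermath were read from 7 lists: TAM and bridging partners, apoptotic cell receptors and opsonins, engulfment genes, other scavenger receptors, lipid handling, heme clearance, and TAM signalling outputs. In alveolar macrophage-like cells 0 of the 44 measured were past 2-fold in either direction, in a class where 0.422% of all genes were higher and 0.38% lower. In interstitial macrophage-like cells 1 of 51 was higher and 2 lower, beside 2.82% and 1.81% of all genes. The scavenger receptor Olr1 was at 20.8 CPM in HIR and 2.91 CPM in sham, a ratio of 7.15 (2.09 to 37.9) on 18 and 3 UMIs. Adam17, a protease that sheds Mertk and Axl, was at 19.7 CPM in HIR and 47.6 CPM in sham, a ratio of 0.413 (0.223 to 0.730), and Blvra, biliverdin reductase A, at 10.4 CPM and 26.2 CPM.

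Of 39 list genes measured in venous endothelium-like cells, 6 were higher in HIR and 2 lower, beside 2.92% and 3.3% of all genes. Most of them handle lipid, and the 10 measured lipid genes had a median log2 ratio of 0.26 beside -0.04 over all genes. Lpl, lipoprotein lipase, was at 320 CPM in HIR and 55.3 CPM in sham, a ratio of 5.79 (4.51 to 7.53), and Fabp4, a fatty acid binding protein, at 629 CPM and 178 CPM, a ratio of 3.54 (3.07 to 4.11). Fabp5 went the other way, with 83.0 CPM in HIR and 430 CPM in sham, a ratio of 0.193 (0.158 to 0.234). Abca1, Apoe and Scarb1 had ratios of 2.76, 2.29 and 2.27. Apoe is also an interstitial macrophage marker. The 16 markers of that list, Apoe among them, summed to 3134 CPM in HIR and 1720 CPM in sham venous cells. The sum is thus no measure of macrophage RNA independent of Apoe, and the part of such RNA was not tested. In general capillary cells Lpl and Abca1, with ratios of 2.32 and 3.05, were the 2 higher of 36 measured, and in aerocyte cells Lpl, Lgals3 and Fabp4, with ratios of 2.33, 2.48 and 5.07, were the 3 higher of 38, with 0 lower in either class. Over all genes, 1.5% in general capillary cells and 1.56% in aerocyte cells were higher and 1.39% and 1.47% lower.

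In classical monocyte-like cells 7 of 51 measured list genes were higher and 7 lower, beside 5.19% and 7.85% of all genes. The HIR and sham cells of this class lay in clusters 18 and 26 and differed in summed neutrophil markers (27118 CPM and 2208 CPM), so these values too cannot be told apart from a change in which cells the class holds. Cxcl16, a scavenger receptor for oxidized lipoprotein that is also a chemokine, was at 123 CPM in HIR and 17.9 CPM in sham, a ratio of 6.91 (4.55 to 11.0), and Hp, haptoglobin, at 58.6 CPM and 15.5 CPM, a ratio of 3.77. Hgf, Xkr8, Colec12 and Abcg1 had ratios of 0.163, 0.178, 0.284 and 0.322. In type 2 conventional dendritic cell-like cells 1 of 43 was higher and 5 were lower, beside 3.12% and 2.98% of all genes. The complement opsonin genes C1qa, C1qb and C1qc were at 301, 309 and 214 CPM in HIR and at 704, 741 and 696 CPM in sham, with ratios of 0.428, 0.416 and 0.308, and these are interstitial macrophage markers too. Cd93 and Anxa5 had ratios of 0.254 and 0.419, and Fabp4 a ratio of 6.67 on 21 HIR and 4 sham UMIs. In adventitial fibroblast-like cells 3 of 38 were higher and 1 lower, beside 4.83% and 3.93% of all genes, with ratios of 3.19 for Abca1, 3.06 for Hgf, 2.34 for Map1lc3b and 0.245 for Socs1.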

How the data were processed

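Counts are whole UMIs per gene and barcode, as the authors deposited them, from 10x Genomics droplet libraries. Cell Ranger 6.0, STAR, Seurat 4.0 and mm10 are named per the submitters' processing notes, while the matrices were written by cellranger 5.0.0, per the file headers; all 32883 features carry rat identifiers. Barcodes under 200 genes or over 20% mitochondrial UMIs were dropped, and the highest Scrublet scores (scanpy 1.11.5), 722 in HIR and 919 in sham, were left out as doublets (0.8% per 1000 barcodes). Both libraries were clustered together (2000 variable genes, members left out; 30 components; 15 neighbours; Leiden resolution 1.0, igraph 0.11.9). A cluster was named from at least 3 markers over 2-fold and a mean log2 fold of at least 0.8, ranked with 0.5 added per marker among its 10 leading genes. For 13 listed symbols the rat symbol was used, chosen after the feature table was seen. UMIs were summed per class and library. Intervals are exact (Poisson, binomial Clopper-Pearson, conditional binomial for ratios), at 95%, and cover counting error only. The ratio intervals alone were run on simulated data. Those were Poisson counts, which fix the coverage in advance and leave out variation between cells. A pair needed 20 UMIs over both libraries and 20 CPM in either. No test was run, since each group is 1 library. The lowest barcode had 501 UMIs in HIR and 500 in sham. The text names all members in classes with at least 100 CPM in either library or over 2-fold apart, and list genes over 2-fold apart whose interval leaves out 1, up to 6 per class. The members and all lists were chosen with earlier results of these data known. 12 other settings were run, and 1 more was chosen after seeing the data.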

Additional observations from a re-analysis of the deposited data

Results flagged for a closer look

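Mfge8 was past 1.5-fold in opposite directions in different classes, with counting intervals that leave out 1. It was higher in HIR in cluster 2, with a ratio of 1.74, and in alveolar macrophage-like cells, with 1.67. It was lower in HIR in aerocyte (0.337), venous (0.354) and general capillary (0.472) endothelium-like cells and in alveolar type 1 epithelium-like cells (0.645) and neutrophil-like cells (0.241). Inside alveolar type 1 cluster 23, which held 62.4% of the HIR cells of that class, the Mfge8 ratio was 1.24 (0.892 to 1.77), an interval that includes 1. In alveolar macrophage-like cells the sham level, 18.2 CPM, equalled that of sham B cell-like cells. Neutrophil-like cells lay mainly in cluster 5 in HIR and in cluster 16 in sham. The difference between classes was not tested, since each group is 1 library.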

How the results depend on the processing

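The count of pairs over 2-fold higher in HIR was 4 and ranged from 3 to 5 over the alternatives, except that it was 13 with each cell assigned alone. The count of pairs over 2-fold lower was 6 and ranged from 4 to 7, except that it was 12 with doublets kept. The cause was not tested in either case, and the share over all genes was not computed under these settings. A leading class was counted as kept where the leader under a setting held over 50% of the cells of the reported leader. By that rule all 7 members with enough UMIs kept it in 9 of 12 other settings, with as few as 50.4% of the cells for Pros1 and 51% for Gas6 with each cell assigned alone, and 6 of 7 did with a stricter filter (Mfge8), Leiden resolution 2.0 (Pros1) and means over cells (Msr1). Of 55 pairs, 7 had HIR and sham shares of cells whose intervals did not overlap after thinning to 1000 UMIs, against 15 unthinned and 11 at 2000 UMIs. The same count was not made over all genes, so these counts have no reference and show only how they vary with depth. Of 494 values of single pairs under 10 alternatives that can move a ratio, 470 stayed within the counting interval of the reported ratio, 24 moved outside it and 0 turned a ratio past 2-fold to the other side of 1. The ratio ranged from 2.07 to 2.84 for Cd163 and from 1.95 to 2.51 for Msr1 in interstitial macrophage-like cells, from 4.91 to 6.28 for Msr1 in classical monocyte-like cells, and from 0.324 to 0.359 for Gas6 and from 0.319 to 0.535 for Mfge8 in venous endothelium-like cells, the last with each cell assigned alone. Without the classes split between clusters, chosen after seeing the data, 3 pairs were higher and 4 lower. No paired analysis was possible because each group is 1 library, and no replicate could be left out.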

Other observations

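Values in classes under 50 cells in a library, or under the minimum level, belong to no comparison above. Cluster 32, an unnamed immune cluster led by Ube2c and Cdk1 with 44 cells in each library, held 332 CPM (298 to 368) of Axl in HIR and 238 CPM (210 to 268) in sham, 55 CPM and 27.8 CPM of Mertk, and 55 CPM and 63.7 CPM of Msr1. Nonclassical monocyte-like cells had 15 Msr1 UMIs in HIR (14.0 CPM, 7.83 to 23.1) and 2 in sham (1.14 CPM), with a ratio of 12.3 (2.87 to 111). Of 43 list genes measured in that class 6 were higher and 4 lower, beside 4.89% and 7.3% of all genes. Among the 6, Cd14, placed here in the list of other scavenger receptors, was at 470 CPM in HIR and 69.9 CPM in sham. The heme oxygenase Hmox1 was at 1264 CPM in HIR and 359 CPM in sham. Club cell-like cells held 29.1 CPM of Mfge8 in HIR and 7.35 CPM in sham, at median depths of 2750.5 and 19031 UMIs. Below the minimum level, Mertk had a ratio of 3.82 (1.74 to 9.04) in adventitial fibroblast-like cells, on 22 HIR and 10 sham UMIs. Its ratio was 2.28 (1.07 to 5.08) in general capillary and 0.476 (0.198 to 1.03) in aerocyte capillary endothelium-like cells.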
